A study of Mus musculus with 2 samples.

Results

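Aerocytes, also called alveolar capillary type aCap cells, were selected from single-cell RNA sequencing of dissociated mouse lung. They were chosen by their transcripts: a cell had to carry at least 1 UMI (a unique molecular identifier, which marks 1 captured RNA molecule) of at least 2 of the endothelial genes Cdh5, Pecam1, Cldn5 and Egfl7, and of at least 2 of the aerocyte genes Ednrb, Fibin, Chst1 and Apln. Cells with at least 2 of the arterial genes Gja5, Bmx, Sulf1 and Fbln2, or with 2 or more UMIs of Vwf, were left out. The gate gave 167 aerocytes, 118 from the normoxia library and 49 from the hypoxia library, among 1634 endothelial cells and 3032 cells in all, of which 2037 passed the filters on detected genes (200 to 4000) and on mitochondrial UMIs (5% or less).

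The normoxia library held lung cells of C57/B6 mice kept at normoxia, and the hypoxia library those of C57/B6 mice kept at 10% oxygen for 3 weeks, a model of pulmonary hypertension. Mice of both groups were 2 to 4 months old, and both suspensions were depleted of CD45 positive leukocytes and CD326 positive epithelial cells, so shares below are shares of what depletion left. The study names male mice for hypoxia work and 3 hypoxic animals for its single-cell experiment, and does not say how animals were pooled or how many were normoxic. Each condition was 1 library, so no test between conditions is possible, and the 95% intervals below are exact intervals that cover counting error only.

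The alveolar wall holds a capillary net lined by a pair of endothelial cell types. Aerocytes are large, thin cells spread over the gas exchange surface, whereas general capillary cells (gCap) are smaller, carry Gpihbp1 and can give rise to both types after injury. Aerocytes make the peptide apelin, and general capillary cells carry its receptor. Endothelial cells sense oxygen through hypoxia-inducible factors (HIFs), which bind short DNA motifs near genes of glucose breakdown and other targets when oxygen is scarce.

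Aerocytes were sequenced deeply relative to the rest of the endothelium. The median aerocyte held 6531.5 UMIs and 2601 detected genes in normoxia, and 6134 UMIs and 2443 genes in hypoxia. The median for endothelial cells outside the gate was 3381 UMIs in normoxia and 2427.5 UMIs in hypoxia. In total the aerocytes held 746964 UMIs in normoxia and 340503 UMIs in hypoxia, and levels are given as UMIs summed over the aerocytes of a library per 1000000 of their UMIs (CPM). At this depth 3 UMIs, the limit that a count of 0 allows, correspond to 4.02 CPM in normoxia and 8.81 CPM in hypoxia. The libraries shared 1 cell barcode, and no aerocyte carried it.

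Aerocytes made up 11.4% of endothelial cells in normoxia (95% exact binomial interval 9.51 to 13.5%) and 8.21% in hypoxia (6.13 to 10.7%), and these intervals overlapped. A cell with more UMIs can more easily show 2 of 4 gate genes. With each cell thinned to 1000 UMIs before gating, which left out 131 endothelial cells in normoxia and 103 in hypoxia, the shares were 9.50% (7.63 to 11.7%) and 6.71% (4.63 to 9.34%). Among aerocytes and general capillary cells together, aerocytes were 17.0% in normoxia and 16.4% (12.4 to 21.1%) in hypoxia. With thinned cells this share was 16.1% (13.0 to 19.6%) and 20.9% (14.8 to 28.2%), so its direction turned, and the intervals overlapped. The general capillary gate itself held 55.7% of endothelial cells in normoxia and 41.9% in hypoxia (49.6% and 25.4% with thinned cells), and its gene Plvap was seen in 88.4% and 30.4% of the gated cells, so the denominator of this share moved with the library. With cells up to 10% mitochondrial UMIs admitted, the gate held 147 normoxia and 49 hypoxia aerocytes. Of the gate genes, Ednrb and Fibin were lower and Apln higher in the hypoxia library, as given below. The part of the filter and of the gate genes in the shares was not tested. Whether the smaller share of endothelial cells in hypoxia came from the animals, the dissociation or the depletion cannot be told apart.

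The 4 gate genes chose the cells, so their levels are a description. Ednrb, the type B endothelin receptor (chr14:103814625-103844402, minus strand, GRCm38), stood at 1711 CPM in normoxia and 1169 CPM in hypoxia and was present in 114 of 118 and 46 of 49 aerocytes. Fibin, a secreted protein of a single-exon gene at chr2:110360917-110363183, stood at 1112 and 614 CPM. Chst1, a Golgi sulfotransferase, stood at 388 and 379 CPM. Apln, the apelin precursor, on chromosome X, stood at 364 CPM in normoxia and 734 CPM in hypoxia. Ednrb and Fibin were thus lower, Chst1 level and Apln higher in the hypoxia library. When each gene was left out of its own gate, the hypoxia over normoxia ratio was 0.627 (0.559 to 0.702) for Ednrb, 0.502 (0.429 to 0.585) for Fibin, 0.984 (0.793 to 1.21) for Chst1 and 1.99 (1.67 to 2.38) for Apln.

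Most endothelial cells showed none of the gate genes. In normoxia 843 endothelial cells had 0 of the 4, 70 had 1, 23 had 2, 43 had 3 and 58 had all 4, and in hypoxia these counts were 497, 49, 12, 11 and 28. The Vwf limit removed 6 and 2 cells with 2 or more gate genes, and the arterial limit removed 0. The threshold was examined with Car4, the membrane carbonic anhydrase of lung capillaries, which the gate did not use. Just outside the gate, cells with 1 gate gene (62 in normoxia and 41 in hypoxia after the other criteria) held Car4 at 189 and 260 CPM. Just inside it, cells with 2 gate genes (19 and 11) held 843 and 1821 CPM, and cells with all 4 held 2839 and 3451 CPM. Markers of general capillary cells summed to 5572 and 8735 CPM in the cells just outside, 4006 and 6094 CPM in those just inside, and 528 and 830 CPM in cells with all 4 gate genes. Pooled, the cells at the threshold thus held transcripts of both types, and whether single cells held both or the group mixed the types was not tested.

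The label of the cells was set beside 13 aerocyte markers that the gate did not use. The lists were chosen with earlier results of these data known, so this is a description and not an independent check. Each of the 13 was at least 2-fold higher in aerocytes than in general capillary cells in both libraries. For comparison, 4.08% of the 4759 genes with at least 50 UMIs in each library over both gates were at least 2-fold higher in aerocytes in both libraries, and 6.26% were at least 2-fold lower. Here general capillary cells were the 828 cells (578 in normoxia, 250 in hypoxia) with at least 2 of Gpihbp1, Aplnr, Plvap and Kit and fewer than 2 of the aerocyte gate genes. Summed, the 13 markers reached 23526 CPM in normoxia and 24085 CPM in hypoxia, which was 9.33 times (9.05 to 9.62) and 9.93 times (9.50 to 10.4) their level in general capillary cells.

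Car4 (chr11:84957786-84966044) had 2629 CPM (2514 to 2748) in normoxia aerocytes and 3433 CPM (3239 to 3636) in hypoxia aerocytes, against 134 and 225 CPM in general capillary cells. Car4 was detected in 113 of 118 and 47 of 49 aerocytes. With cells thinned to 1000 UMIs, Car4 was seen in 85.2% of normoxia aerocytes (77.4 to 91.1%) and 14.7% of normoxia general capillary cells (11.8 to 17.9%), at median depths before thinning of 6678 and 3673.5 UMIs, and in 0 of 81 normoxia fibroblasts. Without thinning, Car4 was seen in 95.8% of normoxia aerocytes, 31.3% of normoxia general capillary cells and 3 of 87 normoxia fibroblasts (3.45%, 0.717 to 9.75%). Fibroblasts were the cells with at least 2 of Col1a1, Col1a2, Col3a1 and Dcn and none of the endothelial genes, and alveolar type 1 cells those with at least 2 of Ager, Hopx, Rtkn2 and Akap5 and none of the endothelial genes.

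Kdr, the main VEGF receptor of endothelium, had 3319 CPM in normoxia and 3034 CPM in hypoxia, 6.94 and 9.70 times its level in general capillary cells. Tbx2, a T-box transcription factor, had 561 and 755 CPM, 26.3 and 41.9 times higher. Igfbp7, a secreted binding protein for insulin-like growth factors, had 4557 and 5439 CPM against 119 and 183 CPM. These differences were of the same order in both libraries. Emp2, a membrane protein of the PMP22 family, had 5550 and 3874 CPM, 23.5 and 16.9 times higher, and its relative Pmp22 had 1684 and 1601 CPM, 8.65 and 8.57 times higher. Nrp1, a VEGF co-receptor, was 3.66 and 4.62 times higher, and Sirpa, the receptor for CD47, 31.0 and 96.1 times higher. Cd34 (6.16 and 4.04 times), Itga3 (5.21 and 4.56 times), Prx (4.27 and 2.88 times) and Icam1 (2.44 and 9.30 times) completed the group with Rprml (6.29 and 17.7 times).

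**Figure D1:**
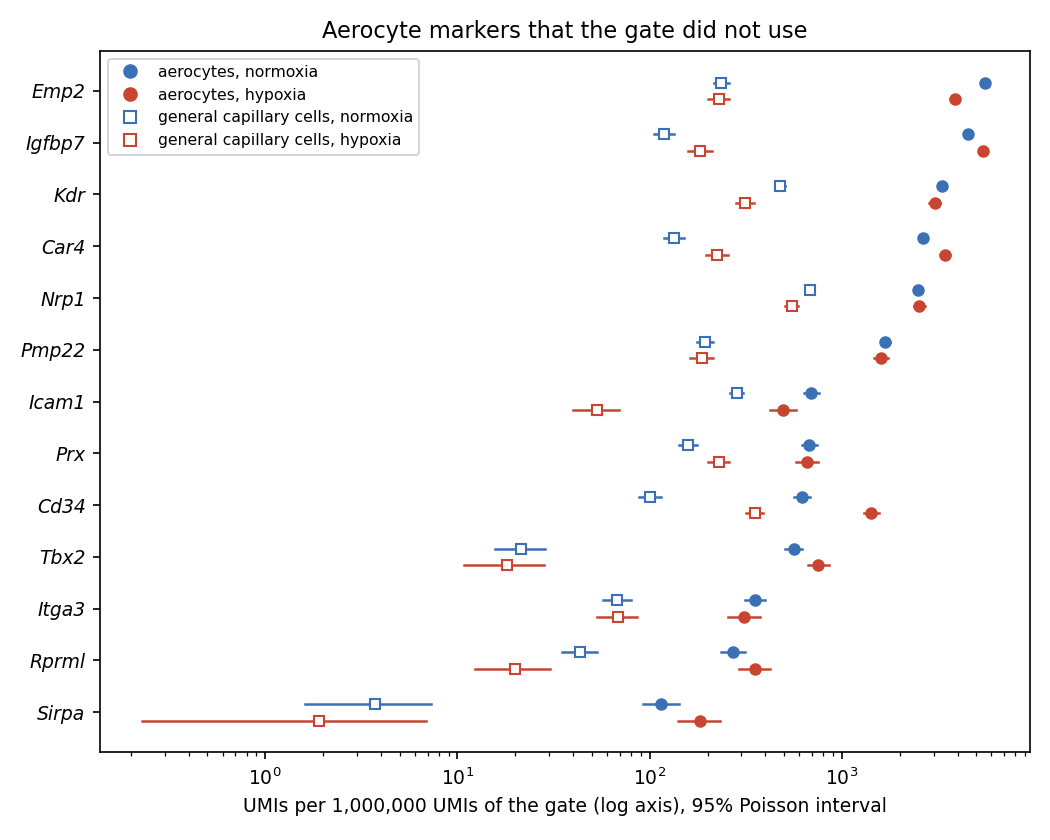
Levels of the 13 aerocyte markers outside the gate in UMIs per 1000000 (log axis), in aerocytes and in general capillary cells of each library. Bars are exact 95% Poisson intervals, and each marker lay at least 2-fold higher in aerocytes in both libraries, for example Car4 at 2629 against 134 in normoxia.

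With these markers counted in, 194 genes were at least 2-fold higher in aerocytes in both libraries and 298 were at least 2-fold lower. Ncam1, the neural cell adhesion molecule, had 71 UMIs in normoxia aerocytes and 78 in hypoxia aerocytes, against 2 UMIs in each library in the far more numerous general capillary cells. AW112010, a noncoding RNA known from interferon-stimulated cells, had 1092 and 1263 CPM, 37.9 and 35.1 times higher than in general capillary cells. Signalling and adhesion genes were also in the group of largest ratios. Rasa4, a GTPase-activating protein for Ras, was 63.4 and 54.8 times higher, and Pde8b, a cyclic AMP phosphodiesterase, was 53.3 and 38.7 times higher. Itgb5, the integrin beta subunit that pairs with alpha V, was 22.2 and 57.3 times higher, and Egflam, which encodes the matrix protein pikachurin, was 22.0 and 49.6 times higher. Each of these genes had at most 21 UMIs in the general capillary cells of either library apart from AW112010, which had 62 and 38.

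Genes of blood coagulation and leukocyte adhesion held further aerocyte-high members. Icam2, an adhesion molecule for leukocytes, had 2117 and 3301 CPM, 2.60 and 2.51 times its level in general capillary cells. Of the 12 genes of this list, 6 reached the minimum of UMIs. Of these, 3 were at least 2-fold higher in aerocytes in both libraries and 1 was lower, beside 4.08% and 6.26% of all genes. Icam1, already given among the 13 markers, is among the 3. Among 15 endothelial transcription factors, 13 reached the minimum, and besides Tbx2 the related Tbx3 (1266 and 1154 CPM) was higher, by 2.87 and 2.10 times, while Sox17 was lower, at 0.140 and 0.153 times the general capillary level, and so was Foxo1, with 24 and 3 UMIs in aerocytes. The list thus had 2 members at least 2-fold higher and 2 lower in both libraries, beside 4.08% and 6.26% of all genes.

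The genes lowest in aerocytes relative to general capillary cells included receptors of the vessel wall. Cd93, a C-type lectin receptor, had 232 and 141 CPM in aerocytes against 2218 and 1549 CPM, a ratio of 0.104 in normoxia and 0.0910 in hypoxia. Ptprb, the vascular endothelial phosphatase that acts on Tie2, had 400 and 273 CPM against 3267 and 2622 CPM, and Tek, which encodes Tie2, had 93.7 and 82.2 CPM, a ratio of 0.113 and 0.132. Tie1, the other Tie receptor, had 245 and 261 CPM, a ratio of 0.623 and 0.561. Thus 2 of the 3 angiopoietin and Tie genes at the minimum were at least 2-fold lower in both libraries, beside 6.26% of all genes. Edn1, the endothelin precursor, had 16.1 and 23.5 CPM in aerocytes against 317 and 350 CPM, a ratio of 0.0506 and 0.0672. Aplnr, the apelin receptor, had 9 and 4 UMIs in aerocytes against 173 and 196 CPM in general capillary cells, but it was used to select general capillary cells. Vegfa, the ligand of Kdr, had 54.9 and 52.9 CPM in aerocytes against 607 and 381 CPM, a ratio of 0.0904 and 0.139.

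Of 9 general capillary markers, 4 were outside the gates and reached the minimum (Cd93, Cxcl12, Sema3c and Lpl). Each was at least 2-fold lower in aerocytes in both libraries, beside 6.26% of all genes. All 7 MHC class II genes examined, which present peptides to helper T cells, were likewise at least 2-fold lower, and their sum was 0.129 and 0.0974 times that of general capillary cells. Cd74, the invariant chain, carried most of it, with 181 and 684 CPM in aerocytes against 1338 and 6556 CPM. Adamts1, Hmcn1, Itga6, Tmem252, Tmem2 and Gja4 were the other genes of the lowest group, with ratios between 0.0387 and 0.120 in the 2 libraries.

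**Figure D2:**
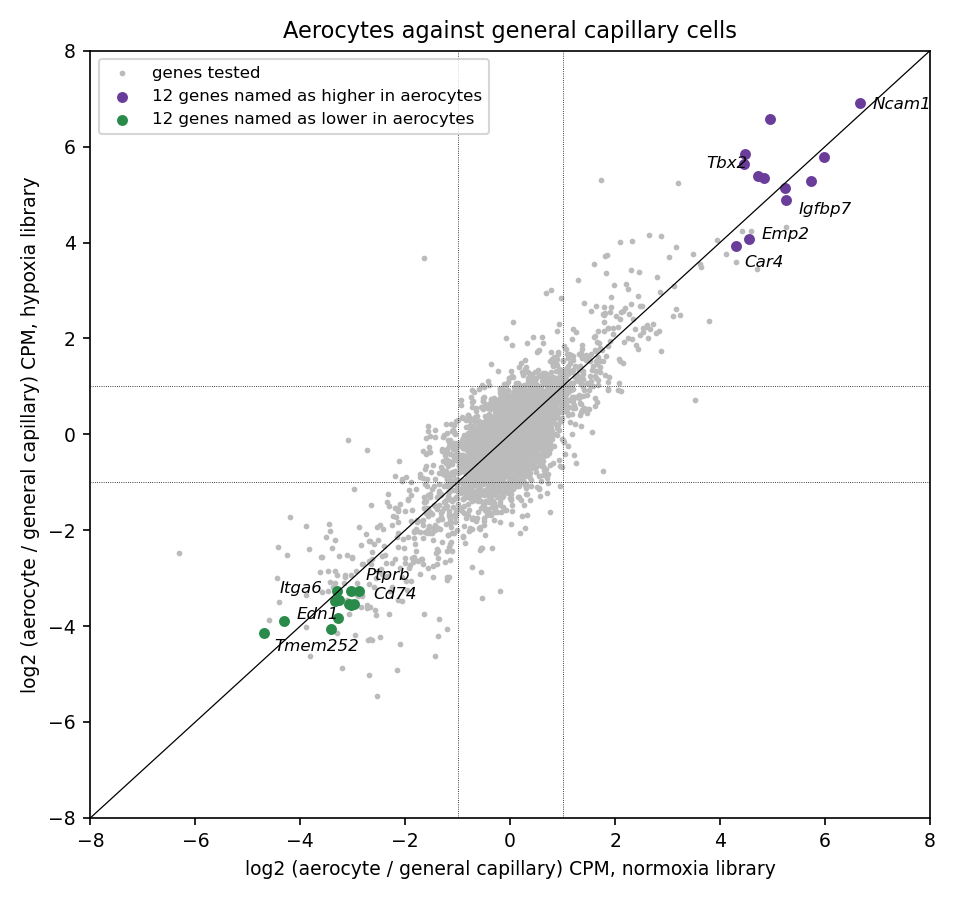
Aerocyte over general capillary ratio of each gene with enough UMIs, normoxia on the horizontal and hypoxia on the vertical log axis. The ratios were computed in each library on its own cells, and Pearson's r of their log2 values was 0.813 across 4754 genes, a description across genes, which are not independent replicates.

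The ratios of the 2 libraries lay along a common line, and 1 of the 4759 genes was at least 2-fold on opposite sides. The median ratio over all genes was 0.998 in normoxia and 0.946 in hypoxia.

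Transcripts of other lung cells in the aerocytes were measured before comparing the libraries. Of 9 leukocyte markers 3 had any UMI, with Lyz2 the most abundant at 22.8 CPM in normoxia and 14.7 CPM in hypoxia, and Ptprc, Cd3e, Csf1r, Nkg7, S100a8 and Itgam were at 0. The 8 fibroblast markers summed to 327 CPM in normoxia and 29.4 CPM in hypoxia, led by Inmt, and 8 normoxia and 2 hypoxia aerocytes held at least 2 of them. Of the general capillary gate genes, at least 2 were found in 19 normoxia and 6 hypoxia aerocytes. The 10 mural markers summed to 548 and 394 CPM, led by Mylk, and 4 normoxia and 0 hypoxia aerocytes held at least 2 of the pericyte genes Pdgfrb, Cspg4, Cox4i2, Higd1b and Notch3. In the 8 alveolar type 2 markers Sftpc led, with 89.7 and 117 CPM in aerocytes against 125 and 187 CPM in general capillary cells. The fibroblast signal was therefore unequal between the libraries. Without the members that held at least 2 fibroblast or 2 pericyte genes, the hypoxia over normoxia ratio of the fibroblast sum went from 0.0899 to 0.542 (0.157 to 1.51) and that of the mural sum from 0.719 to 1.09 (0.878 to 1.36).

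The 8 alveolar type 1 markers stood apart, with sums of 3509 and 4182 CPM against 1510 and 1670 CPM in general capillary cells. Nearly all of this came from 2 genes. Clic5, a chloride channel family protein, had 1856 and 2041 CPM and was found in 115 of 118 and 48 of 49 aerocytes. It was also found in 501 of 578 and 227 of 250 general capillary cells. Hopx, a homeodomain-only protein, had 1540 and 2112 CPM against 427 and 158 CPM in general capillary cells. Of the genes that define alveolar type 1 epithelium, Ager had 38.8 CPM in normoxia aerocytes, below its 68.3 CPM in normoxia general capillary cells, and 14.7 CPM in hypoxia aerocytes, and Rtkn2, Aqp5 and Pdpn had 6, 5 and 4 UMIs in normoxia and 0 in hypoxia. Proliferation genes were also near 0, with 2 UMIs of Birc5 in normoxia and no UMI of the other 6. Y-linked Ddx3y had 128 and 126 CPM and Xist had 0 UMIs in both libraries.

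The comparison of hypoxia with normoxia asked which genes of the aerocyte differed between the animals kept at low oxygen and those kept at normoxia. Over the 3856 genes with at least 50 UMIs in aerocytes the median hypoxia over normoxia ratio was 1.01, and 79 genes were at least 2-fold higher (2.05%) and 142 at least 2-fold lower (3.68%) in hypoxia. Without the members that held fibroblast or pericyte genes, 74 genes were at least 2-fold higher and 106 at least 2-fold lower. In general capillary cells the measures for all cells were 1.04, 2.62% and 4.09% of 7283 genes. The 13 aerocyte markers summed to 1.02 times their normoxia level, with single members on both sides of 1. Cd34, a sialomucin, had 621 CPM in normoxia against 1421 CPM in hypoxia, a ratio of 2.29 (2.01 to 2.61), and was the only one of the 13 past 2-fold. Car4 had a ratio of 1.31 (1.21 to 1.40), Kdr of 0.914 (0.849 to 0.983) and Emp2 of 0.698 (0.656 to 0.743).

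Genes of glycolysis and known hypoxia targets were higher in hypoxia aerocytes. Of 26 genes in this list 24 had a UMI and 14 reached the minimum, of which 6 were at least 2-fold higher and 0 lower, beside 2.05% and 3.68% of all genes. Their median ratio was 1.77 against 1.01 over all genes, and 13 of the 14 ratios were above 1. Bnip3, a mitochondrial protein that promotes mitophagy (chr7:138890836-138909519, minus strand), had 24 UMIs in normoxia (32.1 CPM) and 99 UMIs in hypoxia (291 CPM), a ratio of 9.05 (5.75 to 14.8), and was seen in 22 of 118 and 30 of 49 aerocytes. Ldha, the lactate dehydrogenase subunit that converts pyruvate to lactate (chr7:46841475-46855627), had 89.7 and 496 CPM, a ratio of 5.53 (4.15 to 7.46). Aldoa, an aldolase of glycolysis, had 248 and 1139 CPM, a ratio of 4.60 (3.85 to 5.51). For each of the 3 the intervals of the libraries' levels did not overlap.

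Gapdh, Pkm and Tpi1, which are also enzymes of glycolysis, were the other members past 2-fold. Gapdh had 201 and 590 CPM, a ratio of 2.94 (2.37 to 3.66). Pkm, pyruvate kinase, had 151 and 414 CPM, a ratio of 2.74 (2.12 to 3.54), and Tpi1 had a ratio of 2.08 (1.28 to 3.37). The remaining members lay closer to 1, with Eno1 at 1.96, Pfkp at 1.57, P4ha1 at 1.56, Hk1 at 1.46, Gpi1 at 1.44, Pgam1 at 1.35 and Pgk1 at 1.29. Vegfa, a standard HIF target, had a ratio of 0.963 (0.521 to 1.71). Pfkl, a phosphofructokinase subunit below the minimum, had 9 UMIs in normoxia against 35 in hypoxia, a ratio of 8.53 (4.02 to 20.2), and the glucose transporter Slc2a1 and the lactate transporter Slc16a3 had 0 UMIs in normoxia and 5 and 4 in hypoxia.

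The core letters of the HIF binding motif, ACGTG or GCGTG on either strand, were looked up in the promoters of Bnip3 and Ldha, the members at the minimum with the largest ratios, from 250 bases before to 50 bases after the start of transcription, in RefSeq windows of GRCm38.p6. They are shown because both windows hold several copies. Capitals mark the motif in either orientation (CACGT and CACGC are its reverse), and CACGTG counts on both strands. The Bnip3 window, chr7:138909457-138909756 on the minus strand, holds 5 and the first of the pair of Ldha windows, chr7:46845554-46845853 on the plus strand, holds 7. The second Ldha window holds 2. Windows of the other members at least 2-fold higher hold fewer than these 5 and 7, from 0 for Tpi1 to 3 for Gapdh.
Bnip3 promoter: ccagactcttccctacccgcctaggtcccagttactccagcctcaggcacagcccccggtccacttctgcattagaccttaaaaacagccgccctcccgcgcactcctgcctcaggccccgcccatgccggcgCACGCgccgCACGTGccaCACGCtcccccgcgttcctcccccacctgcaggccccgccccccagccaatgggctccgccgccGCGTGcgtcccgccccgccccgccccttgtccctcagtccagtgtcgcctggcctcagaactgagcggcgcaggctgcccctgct
Ldha promoter: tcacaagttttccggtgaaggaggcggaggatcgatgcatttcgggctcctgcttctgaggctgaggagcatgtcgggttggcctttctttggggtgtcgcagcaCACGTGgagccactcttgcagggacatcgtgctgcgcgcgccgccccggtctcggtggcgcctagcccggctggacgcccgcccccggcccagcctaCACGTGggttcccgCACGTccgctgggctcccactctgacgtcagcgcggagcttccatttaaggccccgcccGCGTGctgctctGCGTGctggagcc
At least 1 copy was in 5 of the 6 list members that were at least 2-fold higher (83.3%) and in 12 of the 14 that reached the minimum (85.7%), beside 71.7% of 3048 genes measured in aerocytes and 43.8% of all 32851 windows. The motif is short and common in promoters of expressed genes, and a match is a description of the letters only.

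Summed over the 26 genes, the list had 1469 CPM in normoxia aerocytes and 4135 CPM in hypoxia aerocytes, a ratio of 2.82 (2.60 to 3.05). In general capillary cells the sum was 2006 and 3102 CPM, a ratio of 1.55 (1.48 to 1.62). Bnip3, Ldha, Aldoa and Gapdh had ratios of 5.56, 2.88, 2.73 and 1.92 there. The ratio was thus larger in aerocytes for the sum and for these 4 genes, which had the list's largest aerocyte ratios at the minimum. Vegfa, whose levels are given above, was a larger part of the sum in general capillary cells than in aerocytes. It was lower in hypoxia in the general capillary cells, and its part in the difference between the sums was not tested. The median ratio was 1.77 in aerocytes and 1.61 over the 20 genes that reached the minimum in general capillary cells. Of those 20 genes, 6 were at least 2-fold higher and 1 was at least 2-fold lower. Whether the ratio differed between the cell types beyond animals was not tested.

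**Figure D3:**
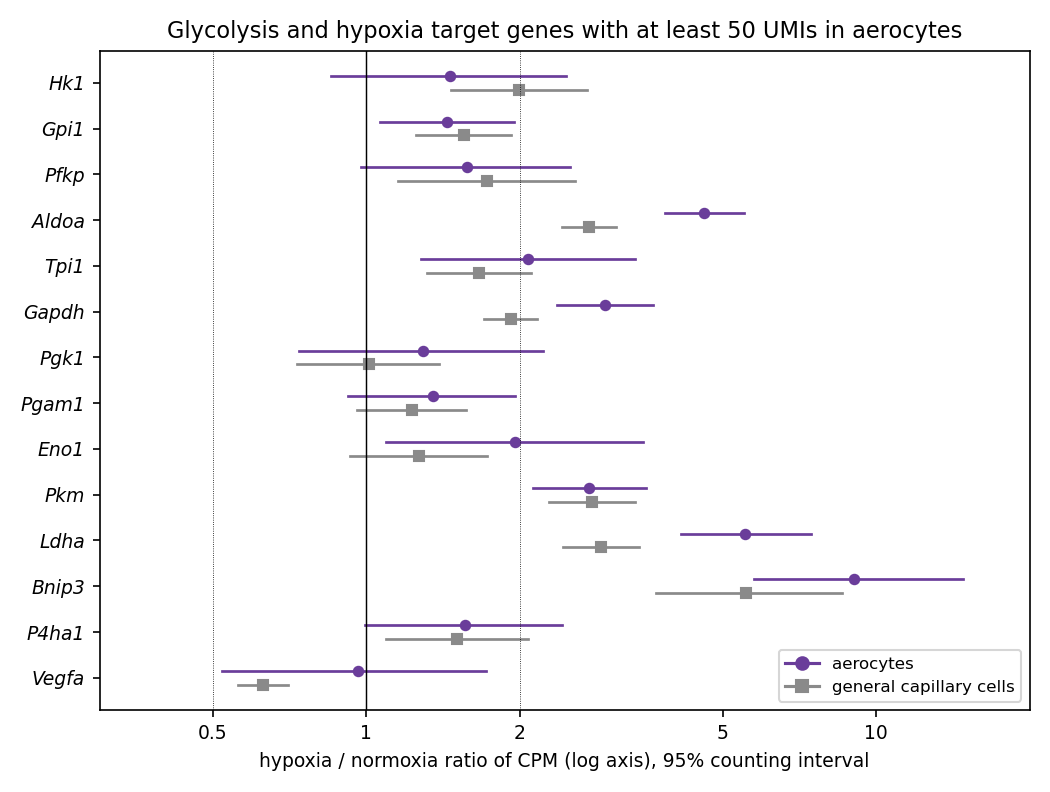
Hypoxia over normoxia ratio (log axis) of the glycolysis and hypoxia target genes that reached 50 UMIs in aerocytes, with the same ratio in general capillary cells and exact 95% intervals for counting error. In aerocytes 13 of 14 lie above 1, from Vegfa at 0.963 to Bnip3 at 9.05.

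The difference was spread over the cells. Among single aerocytes, the summed level of the list ran from 0 to 3406 CPM with a median of 1345 CPM in normoxia, and from 1322 to 14350 CPM with a median of 3725 CPM in hypoxia. Of the 49 hypoxia aerocytes, 48 (98.0%) lay above the normoxia median and 27 above the highest normoxia aerocyte. With members that carried fibroblast or pericyte genes left out, the summed ratio was 2.79, and with cells up to 10% mitochondrial UMIs admitted it was 2.87. The number of list genes at least 2-fold higher was 6 and 5 under these alternatives.

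The HIF alpha subunits were measured beside these genes. Epas1, which encodes the HIF alpha subunit most abundant in endothelium (chr17:86753700-86833410), had 2129 CPM (2025 to 2236) in normoxia aerocytes and 1959 CPM (1813 to 2113) in hypoxia aerocytes, a ratio of 0.920 (0.839 to 1.01). In general capillary cells it had 3296 and 1994 CPM, a ratio of 0.605 (0.576 to 0.635). Epas1 was therefore lower in aerocytes than in general capillary cells in normoxia (0.646 times) and level with them in hypoxia (0.983 times). Hif1a had 27 and 22 UMIs, a ratio of 1.79 (0.970 to 3.26). The oxygen-sensing prolyl hydroxylases Egln1 and Egln2 had ratios of 1.38 and 1.05, and Egln3 had 0 UMIs, so 0 of the 3 members of this list that reached the minimum were past 2-fold.

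Messages encoded by mitochondrial DNA were lower in the hypoxia aerocytes. Of the 13 respiratory chain genes 12 reached the minimum. All 12 were at least 2-fold lower, beside 3.68% of all genes, and their median ratio was 0.373. Their sum was 23546 CPM in normoxia against 8684 CPM in hypoxia, a ratio of 0.369 (0.355 to 0.383), and in general capillary cells the ratio was 0.507. The filter on mitochondrial UMIs capped these levels in every cell, so they are in part what the selection left. With cells up to 10% mitochondrial UMIs admitted (147 normoxia and 49 hypoxia aerocytes), the ratio of the sum was 0.322 (0.310 to 0.335). All 12 genes at the minimum were at least 2-fold lower there too. mt-Atp6, an ATP synthase subunit, had 4312 and 1316 CPM, and mt-Co3, a cytochrome oxidase subunit, had 4075 and 1527 CPM. Per cell the median was 23773 CPM in normoxia against 4255 CPM in hypoxia, and 44 of 49 hypoxia aerocytes lay below the lower quartile of the normoxia aerocytes. The share of mitochondrial UMIs, of which these genes are nearly the whole, is also a measure of cell quality, with a median of 2.38% in normoxia and 0.426% in hypoxia aerocytes, and which of these the difference reflects cannot be told apart here.

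**Figure D4:**
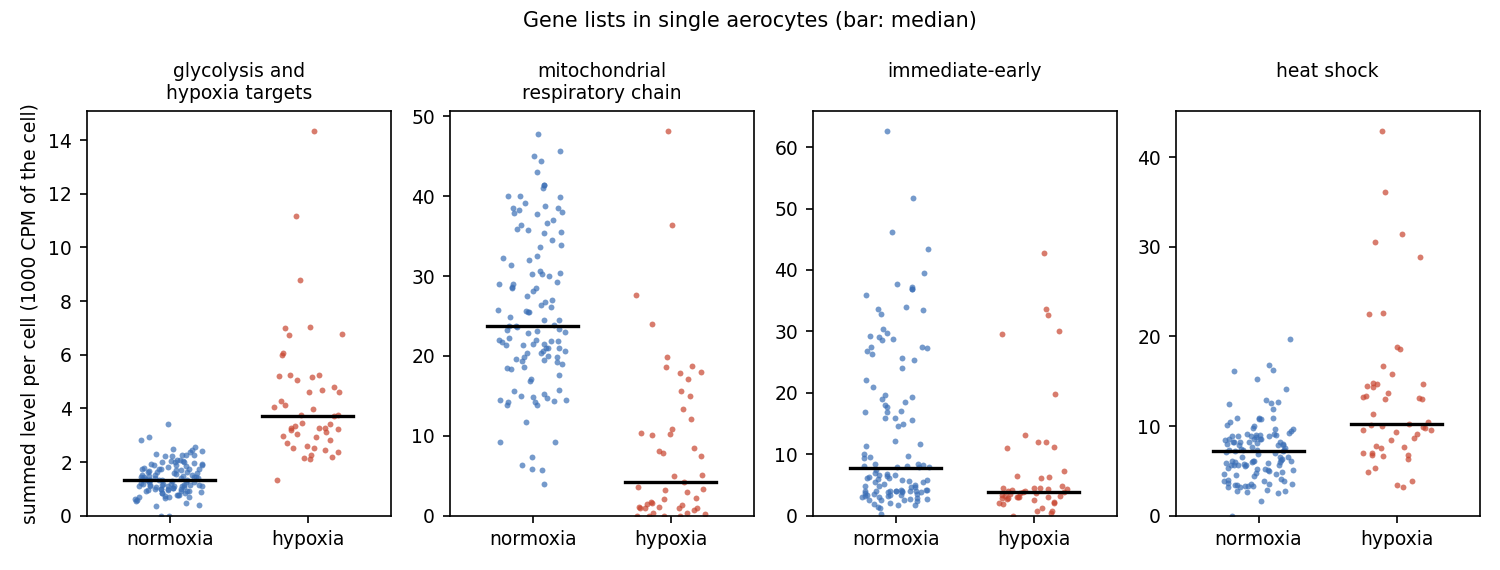
Level of 4 gene lists in each single aerocyte, by library, in UMIs per 1000000 of the cell's UMIs, with the median marked. For the glycolysis and hypoxia target list 48 of 49 hypoxia aerocytes lie above the normoxia median, and for the mitochondrial list 44 of 49 lie below the normoxia lower quartile. The filter on mitochondrial UMIs that chose the cells capped the mitochondrial list in both libraries.

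Among all genes, the largest hypoxia over normoxia ratios that rested on many cells included Ntrk2, the receptor for brain-derived neurotrophic factor. Ntrk2 had 3 UMIs in 3 normoxia aerocytes and 74 UMIs in 26 hypoxia aerocytes, a ratio of 54.1 (17.8 to 268), beside 24.7 in general capillary cells. In hypoxia Ntrk2 was seen in 53.1% of aerocytes at a median depth of 6134 UMIs, in 86.0% of general capillary cells at 3771.5 UMIs, in 1 of 8 fibroblasts and in 2 of 3 alveolar type 1 cells. Its hypoxia level in aerocytes, 217 CPM, was 0.217 times that in general capillary cells. The general capillary markers summed in hypoxia aerocytes to 0.136 times their level in general capillary cells. That sum includes genes that chose the general capillary cells, which can lower it. The 4 markers outside the gates that reached the minimum had a median ratio of 0.111. The part of general capillary or free RNA in the Ntrk2 level was not tested. Gdpd3, a lysophospholipase below the minimum of 50 UMIs, had 0 UMIs in normoxia and 32 in hypoxia, at least 23.4-fold more taking 3 UMIs as the floor, beside 8.53 in general capillary cells. Sema5a, a semaphorin, had 9 and 51 UMIs, a ratio of 12.4 (6.06 to 28.7). Mal, a membrane raft protein, had 0 and 2 UMIs in aerocytes but 0 and 117 UMIs in general capillary cells, and Cdk19, a Mediator kinase, had ratios of 3.01 and 10.8. Members of this set of 4 companion genes (Ntrk2, Cdk19, Mal and Gdpd3) were put together from earlier results on these libraries, so their direction is not independent evidence.

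Further genes in the group of largest ratios were Slc20a1, a phosphate transporter, with 22.8 and 106 CPM and a ratio of 4.65 (2.54 to 8.82), beside 0.955 in general capillary cells. Fxyd5, a regulator of the sodium pump, had 72.3 and 302 CPM, a ratio of 4.18, beside 2.01. Mest had 16 and 41 UMIs, a ratio of 5.62, and Sparcl1, a matrix protein, had 66.9 and 270 CPM, a ratio of 4.04 (2.83 to 5.82), beside 8.34 (7.52 to 9.26). The noncoding Gm26870 had 225 and 963 CPM, a ratio of 4.28, beside 3.69. Scgb1a1, the secretoglobin of club cells, had the next largest ratio after Ntrk2, at 35.7 with 94 and 1530 UMIs, but 1466 of the 1530 (95.8%) were in 1 hypoxia cell. Without the cell richest in Scgb1a1 in each library its ratio was 1.74 (1.23 to 2.43).

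**Figure D5:**
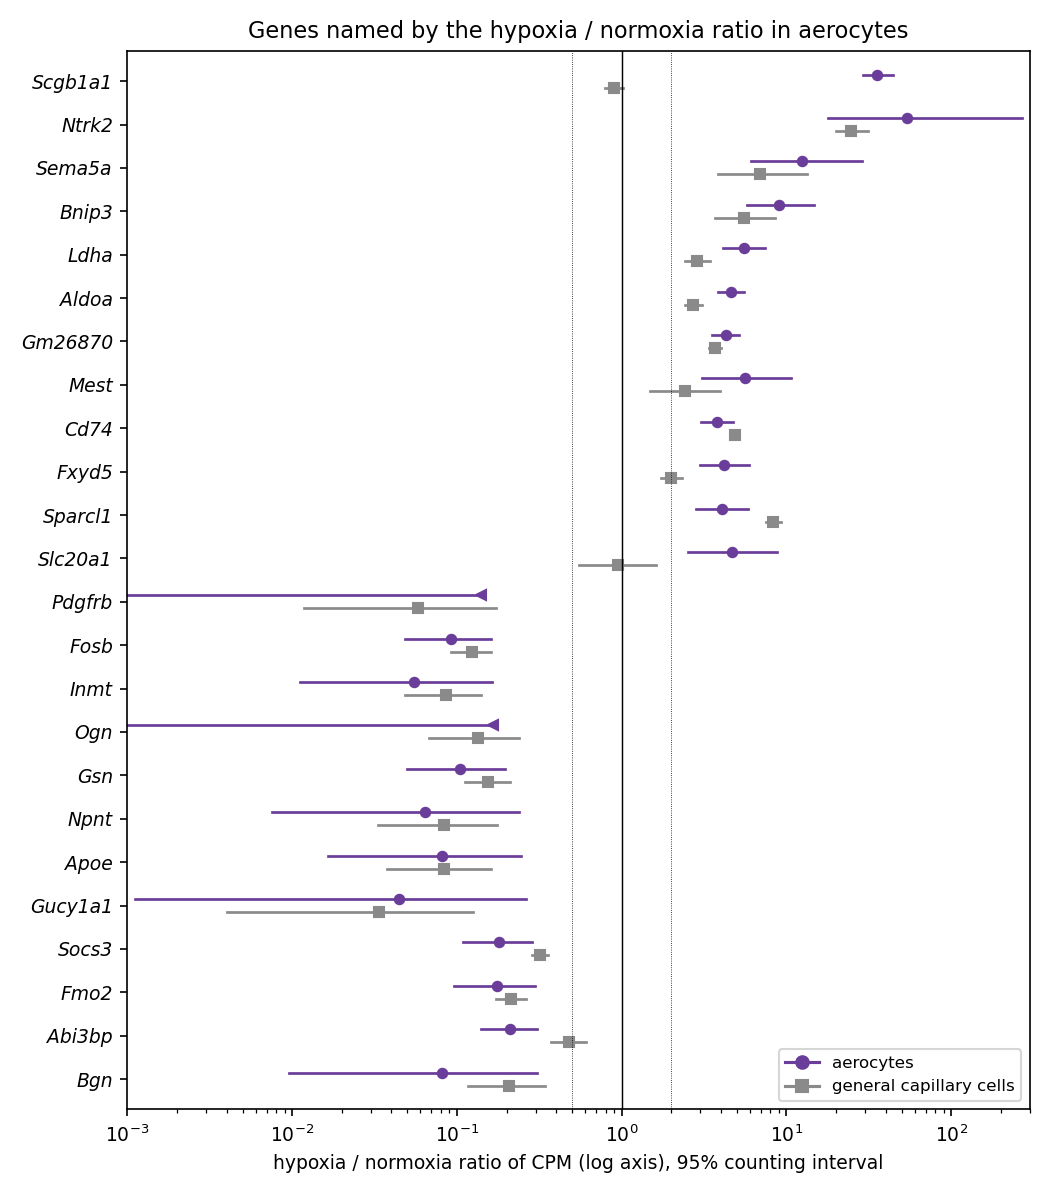
Hypoxia over normoxia ratio (log axis) in aerocytes of the 12 genes each way with the largest ratios by the interval bound nearest to 1, with the same ratio in general capillary cells and exact 95% intervals. Ratios run from 54.1 for Ntrk2 to Pdgfrb and Ogn, which had 0 UMIs in hypoxia aerocytes and are drawn at the upper bound of their interval with a left-pointing mark.

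MHC class II genes had higher levels in the hypoxia library in both capillary types. In aerocytes 4 of the 7 reached the minimum and all 4 were at least 2-fold higher, beside 2.05% of all genes. Cd74 had a ratio of 3.79 (3.05 to 4.72), and the chains H2-Aa, H2-Ab1 and H2-Eb1 had ratios of 2.59, 2.33 and 2.61. The sum was 378 CPM in normoxia against 1195 CPM in hypoxia, a ratio of 3.17 (2.71 to 3.70), beside 4.18 in general capillary cells, which had 2935 and 12267 CPM. The general capillary markers inside the aerocytes summed to 1209 CPM in normoxia and to 1427 CPM in hypoxia, with medians per cell of 390 and 729 CPM, and their part in the MHC class II levels was not tested. MHC class I genes, of which 8 reached the minimum, had 0 past 2-fold and a summed ratio of 1.39.

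Heat shock genes were mostly above 1 in hypoxia. Of 10 genes 9 reached the minimum and 2 were at least 2-fold higher, beside 2.05% of all genes. The median ratio was 1.79. The number at least 2-fold higher was 4 without the members that held fibroblast or pericyte genes and 3 with cells of up to 10% mitochondrial UMIs. Hspb1, a small heat shock protein, had 1809 and 3830 CPM, a ratio of 2.12 (1.96 to 2.29), beside 1.03 in general capillary cells. Hspa1b had a ratio of 2.15 and its near-identical copy Hspa1a of 1.97, and reads of this pair are hard to assign to either. The sum had a ratio of 1.77 (1.71 to 1.84), and 38 of 49 hypoxia aerocytes lay above the normoxia median.

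Immediate-early genes, which dissociation itself can induce, were lower in hypoxia aerocytes. Of 15 genes 14 reached the minimum and 8 were at least 2-fold lower, beside 3.68% of all genes. The median ratio of the 14 was 0.494, with 0 above 1. Fosb, an AP-1 subunit, had 309 and 13 UMIs, a ratio of 0.0923, and Socs3, the inhibitor of cytokine signalling, had 325 and 58.7 CPM, a ratio of 0.181 (0.108 to 0.285). Egr1, Ier2, Atf3, Dusp1, Zfp36 and Btg2 had ratios between 0.412 and 0.498. The sum was 15706 and 8693 CPM, a ratio of 0.553 (0.531 to 0.576), beside 0.339 in general capillary cells. The spread within a library was wide, from 299 to 62669 CPM per cell in normoxia and from 0 to 42793 CPM in hypoxia, and without the members that carried fibroblast or pericyte genes 5 of the genes were past 2-fold.

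Several of the genes lowest in hypoxia were fibroblast or pericyte transcripts. Pdgfrb, the pericyte receptor for platelet-derived growth factor, had 60 UMIs in normoxia and 0 in hypoxia, at least 9.12-fold less with the same floor, but 50 of the 60 (83.3%) were in 1 normoxia cell. Inmt had 120 and 3 UMIs, in 15 normoxia cells, and Ogn had 51 and 0 UMIs. Gsn, gelsolin, had 209 and 10 UMIs, a ratio of 0.105, which turned to 1.39 without the members that carried at least 2 fibroblast or 2 pericyte genes. Npnt, Apoe, Gucy1a1 and Bgn had 49 to 81 UMIs in normoxia and 1 to 3 in hypoxia. In the 87 normoxia fibroblasts Inmt stood at 5380 CPM, Ogn at 2596 CPM and Pdgfrb at 871 CPM, and the part of these cells in the difference was not tested beyond leaving the members out.

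A smaller group of low genes was spread over many aerocytes. Abi3bp, a matrix protein, had 420 CPM in 84 normoxia cells and 88.1 CPM in 17 hypoxia cells, a ratio of 0.210 (0.139 to 0.305), beside 0.477 in general capillary cells. Fmo2, the lung flavin monooxygenase, had 187 UMIs in 54 normoxia cells and 15 UMIs in 8 hypoxia cells, a ratio of 0.176. Hes1, a target of Notch, had 471 and 138 CPM, a ratio of 0.293 (0.211 to 0.398). It was the only Notch gene of the 5 at the minimum to be past 2-fold, and 3.68% of all genes were at least 2-fold lower.

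Pathways with a known part in pulmonary vascular disease were examined as lists. Of 9 nitric oxide and prostacyclin genes 3 reached the minimum, with a median ratio of 0.475. Of these 3 genes, 2 were at least 2-fold lower in hypoxia, beside 3.68% of all genes. They were Gucy1a1, a subunit of the nitric oxide receptor guanylate cyclase, and Pde5a, the cyclic GMP phosphodiesterase, with 60 and 13 UMIs, a ratio of 0.475 (0.239 to 0.876), and the third, the prostaglandin transporter Slco2a1, had a ratio of 0.856. Gucy1a1 had 49 and 1 UMIs, 27 of the 49 (55.1%) were in 1 normoxia cell, and it stood at 485 CPM in normoxia fibroblasts against 65.6 CPM in normoxia aerocytes. The fibroblast sum moved in the same direction, and its part in this list was not tested. Of 14 BMP and TGF-beta genes at the minimum, 0 were at least 2-fold higher and 1, Bmp6, was at least 2-fold lower. Over all genes these shares were 2.05% and 3.68%, and Bmp6 had a ratio of 0.202 with 87 and 8 UMIs. Bmpr2, the receptor mutated in heritable pulmonary hypertension, had 2091 and 1606 CPM, a ratio of 0.768 (0.696 to 0.847). Eng, endoglin, had a ratio of 0.795 in aerocytes beside 0.398 in general capillary cells, and Id1, a target of BMP signalling, had 1.23. Of 7 apelin and adrenomedullin genes 3 reached the minimum, and the one past 2-fold was Apln, which chose the cells and whose ratio with Apln left out of the gate was 1.99, short of 2-fold. In the endothelin group Ece1, the enzyme that makes mature endothelin, had 505 and 300 CPM, a ratio of 0.594. Calcrl and Ramp2, which together form the adrenomedullin receptor, had 3375 and 2866 CPM and 3414 and 4211 CPM, with ratios of 0.849 and 1.23.

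Aqp1, the water channel, had 1161 CPM in normoxia against 790 CPM in hypoxia, a ratio of 0.681 (0.591 to 0.781) in aerocytes beside 1.38 in general capillary cells. Collagen IV chains of the basement membrane had levels of 750 and 1116 CPM for Col4a1, a ratio of 1.49 beside 3.35 in general capillary cells, and of 458 and 687 CPM for Col4a2. Nid1, which links laminin to collagen IV, had 289 and 132 CPM, a ratio of 0.457. The flow-responsive factors Klf2 and Klf4 had ratios of 0.628 and 0.581, and 0 of the 6 Krüppel-like factors were past 2-fold. Sox18, an endothelial transcription factor, had 238 and 502 CPM, a ratio of 2.11 (1.70 to 2.61). It was the only member of the 10 transcription factors at the minimum past 2-fold, and 2.05% of all genes were at least 2-fold higher. Of 76 ribosomal protein genes at the minimum 0 were past 2-fold in either direction.

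Aerocytes also varied among themselves. In cells thinned to 1000 UMIs the variance of counts over their mean, which is about 1 for counting error alone, had a median of 1.23 over 354 genes in normoxia and 1.57 over 129 genes in hypoxia. The minimum of 50 thinned UMIs was applied over 115 cells in normoxia and 47 in hypoxia, so the gene sets differ. The medians are therefore not a comparison of the libraries. In normoxia the highest values were 29.0 for the nuclear noncoding RNA Malat1, 8.71 for Gm42418, 5.36 for Atf3, 4.89 for Fos, 4.37 for Fth1, 3.84 for Egr1, 3.70 for Tmsb4x and 3.50 for Ptprb. In hypoxia they were 97.4 for Scgb1a1, 35.4 for Malat1, 5.75 for Gm42418, 5.67 for Hspb1, 4.95 for Fth1, 4.54 for Hspa1a, 4.16 for mt-Co3 and 3.99 for Igfbp7. Atf3, Fos and Egr1 are immediate-early genes and Hspb1 and Hspa1a heat shock genes, and Igfbp7 was the only aerocyte marker among these.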

How the data were processed

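Single-cell libraries were made with the 10x Chromium 3' kit (version 3.1 per the labels), and the authors deposited 1 raw matrix per library of UMI counts per gene and cell. The matrix headers name Cell Ranger 6.1.2, whereas the study's text names other versions, and reads were aligned to mm10. The counts were used as deposited. Filters kept cells whose number of detected genes lay between 200 and 4000 and whose mitochondrial share of UMIs was 5% or less. The study names an upper limit of 4000 genes in its results and of 6000 in its methods, and 6000 was tried as an alternative. Doublets were limited only by the upper limit on genes, and no caller was run.

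Counts were summed over the cells of a gate and scaled to 1000000 UMIs. Intervals were exact at 95% (Poisson for levels, conditional binomial for ratios, Clopper-Pearson for shares) and cover counting error only. With 1 library in each condition no test was run, and genes with at least 50 UMIs were counted as past 2-fold at a ratio of at least 2 or at most 0.5. Genes named in the text were the 12 with the largest ratios each way, the 8 most variable in each library after thinning to 1000 UMIs, and members of 39 gene lists, and some of these are not reported here. Gate genes were left out of the comparison between cell types. The members, lists and rules were chosen with earlier results of these data known. Gene positions came from GENCODE M21 and promoter windows from RefSeq GRCm38.p6. The symbol Aldoa is shared by 2 identifiers in the files, and only the one with UMIs was used. The steps were tested on simulated data. Tools were Python 3.11.15, numpy 2.4.6, scipy 1.17.1, pandas 2.3.3 and matplotlib 3.10.9. Alternatives covered the gene and mitochondrial limits, the gate, thinning, scaling, the minimum of UMIs and cells with transcripts of other types.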

Additional observations from a re-analysis of the deposited data

Results flagged for a closer look

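Of 3784 genes tested in both capillary cell types, a pair lay past 2-fold in opposite directions between hypoxia and normoxia. Of the 79 genes at least 2-fold higher in aerocytes, 27 were also at least 2-fold higher in general capillary cells. Of the 142 at least 2-fold lower, 47 were also lower there. Ptpre, a receptor-type tyrosine phosphatase, had 131 UMIs (175 CPM) in normoxia aerocytes and 18 UMIs (52.9 CPM) in hypoxia aerocytes, a ratio of 0.301 (0.173 to 0.495), and 15.3 and 32.2 CPM in general capillary cells, a ratio of 2.10 (1.26 to 3.50). Pcolce2, an enhancer of procollagen processing, had 220 and 599 CPM in aerocytes, a ratio of 2.73 (2.21 to 3.37), and 66.4 and 15.2 CPM in general capillary cells, a ratio of 0.228 (0.127 to 0.384). With 1 library in each condition the difference between the cell types was not tested.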

How the results depend on the processing

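No paired analysis was possible because normoxia and hypoxia had 1 library apiece. Counts past 2-fold moved with the minimum of UMIs. At 20 and 100 UMIs, 262 and 30 genes were higher and 440 and 60 lower in hypoxia aerocytes, and 294 and 121 were higher and 473 and 177 lower in aerocytes than in general capillary cells. Averaging over cells gave 131 genes higher in hypoxia. Gating on cells thinned to 1000 UMIs, which left 82 and 32 aerocytes, gave 88 genes lower in hypoxia, an aerocyte share of 9.50% in normoxia and a Car4 ratio of 1.19. The summed ratio of the 13 aerocyte markers to general capillary cells in normoxia was 8.72 with up to 6000 genes, 8.96 with up to 10% mitochondrial UMIs, 10.1 with thinning, 9.81 with 3 of 4 gate genes, 9.78 without members carrying fibroblast or pericyte genes (an alternative chosen after seeing the data) and 10.1 without a UMI of Gpihbp1. In hypoxia it was 9.48 with up to 6000 genes, 10.6 with 3 of 4 gate genes, 10.5 with median scaling and 10.7 without a UMI of Gpihbp1. The hypoxia ratio of Gsn turned to 1.35 with thinning and 1.39 without members carrying fibroblast or pericyte genes.

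Leaving out members with 2 genes of another cell class left 4 and 1 aerocytes, because Hopx and Clic5 count as alveolar type 1 genes, and is nearly void. It gave shares of 0.386% and 0.168%, 0 genes higher and 2 lower in hypoxia among 6 with enough UMIs, 66 higher and 1976 lower than in general capillary cells, marker ratios of 10.8 and 12.5, and hypoxia ratios of 1.88 for Epas1, 3.39 for Car4 and 0.794 for Kdr. With so few cells the hypoxia ratios of Aldoa and Sparcl1 were 0, and so were the ratios to general capillary cells of Rasa4, Itgb5 and Egflam in both libraries and of Ncam1, AW112010, Sirpa and Pde8b in hypoxia.

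Of the 24 genes with the largest hypoxia ratios, 20 moved by less than their interval with up to 6000 genes, 24 with up to 10% mitochondrial UMIs and 14 with thinning. Of the 48 ratios of genes named between cell types, 36, 46 and 22 did. Without members carrying fibroblast or pericyte genes, 18 of the 24 hypoxia ratios and all 48 ratios between cell types did. Of the 24, 5 moved further and 1 turned direction. The 49 hypoxia aerocytes give 8.81 CPM for 3 UMIs, and differences between animals could not be measured.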
